A study of Homo sapiens with 12 samples.

Results

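The SLC25 genes code for the mitochondrial carriers, and 48 of the 58735 genes in the count tables belong to them. They were taken as all protein-coding genes (19951 in the GENCODE 29 annotation) whose symbol starts with SLC25A, a rule that uses no measured value. Earlier results of these data were known when the family was chosen. RNA was sequenced from HEK293T, an established line from human embryonic kidney with the large T antigen of SV40, which takes up plasmids readily. The 4 groups had 3 libraries each. The miR-211 group was transfected with 500 ng of a miR-211 plasmid and its control with 500 ng of a control plasmid, by lipofection. The U1 siRNA group was given 1 nM of a siRNA of the Dicer-substrate type that targets U1, the small nuclear RNA that recognises 5 prime splice sites, and its control a scrambled oligo. The labels mark the libraries of this second experiment, but not of the first, as WT. RNA was taken 24 h after transfection in all groups. The labels do not say that replicates were separate cultures, so the spread between libraries may be technical, and the cells are bulk, so that fewer cells and less RNA per cell cannot be told apart.

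Mitochondrial carriers are small membrane proteins built from repeats of the same fold. They exchange nucleotides, metabolic acids, amino acids, cofactors and ions across the inner mitochondrial membrane, which is otherwise closed to them. Several substrates are served by paralogues, encoded by separate genes whose use differs between tissues. The ADP/ATP carriers, which export ATP made in mitochondria in exchange for ADP, are the textbook case: SLC25A4 is known as the form of heart and skeletal muscle, SLC25A5 and SLC25A6 as forms of dividing and of most other cells, and SLC25A31 as the form of the germ line.

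The libraries held 4515728 to 9290686 counts over genes. The MIR211 gene, which checks the plasmid, had 271, 236 and 256 counts per 1000000 (CPM) in the miR-211 libraries, against 0.161, 1.30 and 0.134 CPM in the control plasmid libraries. The summed level of 15 annotated U1 genes was 18.9, 13.95 and 17.1 CPM in the U1 siRNA libraries, against 19.4, 19.3 and 16.5 CPM in the scrambled oligo libraries. MIR211 thus separated its groups by a wide gap, while the U1 sums overlapped, so the U1 siRNA group is named here by its label only. U1 siRNA replicate 2 stood apart: 44.5% of its uniquely mapped pairs fell outside annotated exons, against 14.5% to 25.5% in the other 11 libraries. Summed markers of HEK293T cells were at 151 to 193 CPM in every library, most of it from NEFL, VIM and NEFM. The kidney markers PAX2 and LHX1 of that list had group means of only 0.149 to 0.258 CPM. The highest sum over any other marker list, that of fibroblasts, was 17.1 CPM, in U1 siRNA replicate 2. The lowest fibroblast sum in the U1 siRNA group was 3.00 CPM.

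Across the 12 libraries the carriers spanned a wide range of levels. Of the 48 genes, 6 had a mean of at least 100 CPM, 24 had 10 to 100 CPM, 8 had 1 to 10 CPM and 10 had under 1 CPM. Counts were present in all 12 libraries for 40 of them. Levels of different carriers are compared below per length, as counts per kb of merged exons, scaled so that each library sums to the same total, and are called length-scaled levels. SLC25A5 and SLC25A6 stood far above the rest on this scale, at 3253 and 1345, and held 57.7% and 23.9% of the summed length-scaled level of the 48 carriers. In CPM, with no length scaling, they held 40.3% and 24.0%.

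**Figure D1:**
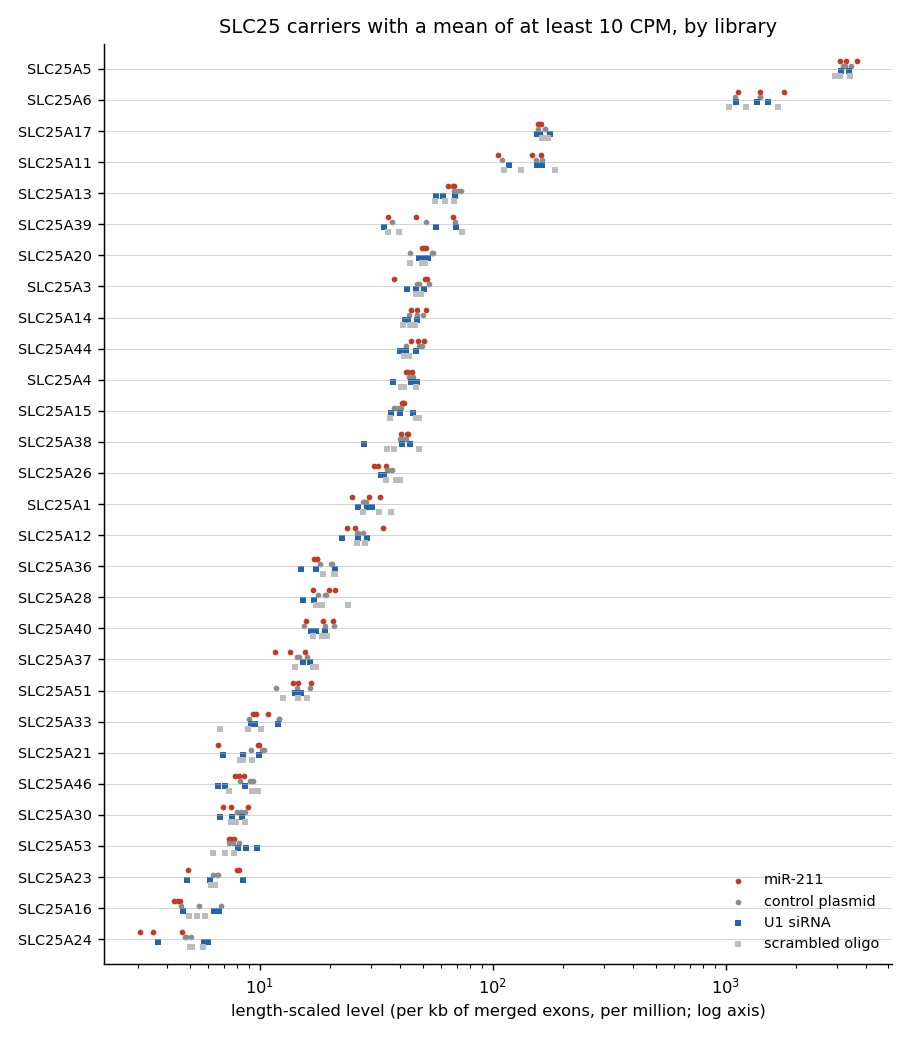
Length-scaled level (counts per kb of merged exons, scaled to the same total in each library, log axis) of carriers with a mean of at least 10 CPM, ordered by mean level, with 1 point per library and 3 libraries per group. SLC25A5 and SLC25A6 lie apart from all others at means of 3253 and 1345, and within nearly every carrier the points of the 4 groups lie among each other.

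SLC25A5 (ENSG00000005022, chromosome X, 119468400 to 119471319, plus strand, GENCODE 29 on GRCh38) had 1637, 1543 and 1821 CPM in the miR-211 libraries, against 1586, 1674 and 1566 CPM in the control plasmid libraries. With U1 siRNA it had 1546, 1590 and 1658 CPM, against 1542, 1457 and 1668 CPM with the scrambled oligo. The groups overlapped in both comparisons, and the miR-211 group held both the highest of its 6 values and the lowest. SLC25A6 (ENSG00000169100, pseudoautosomal part of chromosome X, 1386152 to 1392724, minus strand) had 812, 1015 and 1278 CPM with miR-211, against 770, 986 and 999 CPM with the control plasmid. It had 972, 817 and 1070.3 CPM with U1 siRNA, against 741, 872 and 1173 CPM with the scrambled oligo. Here too the groups overlapped, and the spread inside each group was wider than for SLC25A5.

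The heart and muscle form SLC25A4 (ENSG00000151729, chromosome 4) was present at an even level, far below SLC25A5 and SLC25A6. It had 69.7, 68.2 and 72.2 CPM with miR-211, against 69.5, 68.2 and 72.5 CPM with the control plasmid. It had 71.6, 61.1 and 74.7 CPM with U1 siRNA, against 65.0, 66.2 and 73.1 CPM with the scrambled oligo. U1 siRNA replicate 2 was the lowest of the 12 libraries for this gene. The germ line form SLC25A31 was near the limit of detection, with 38 counts over all 12 libraries. SLC25A31 had 0.494, 0.355 and 0.259 CPM with miR-211, against 0, 0.144 and 0.534 CPM with the control plasmid, and 1.10, 1.77 and 0.523 CPM with U1 siRNA, against 0.409, 0 and 0.431 CPM with the scrambled oligo. Its highest value was in U1 siRNA replicate 2, and a few counts set each of these values.

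**Figure D2:**
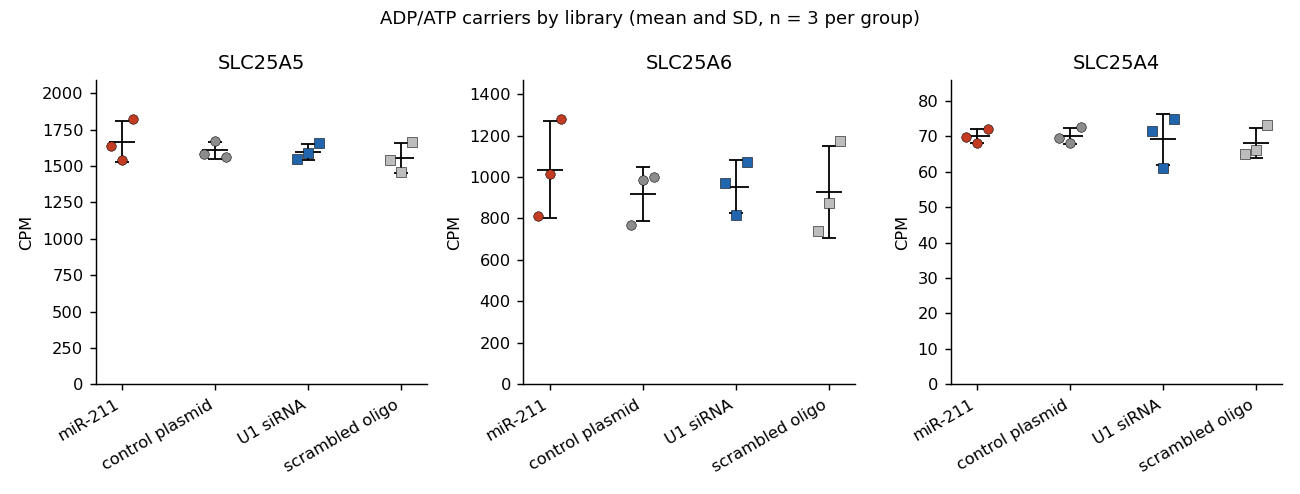
CPM of the ADP/ATP carriers SLC25A5, SLC25A6 and SLC25A4 in each library of the 4 groups, with group means and SD (n = 3 each); every axis starts at 0 and each gene has its own scale. SLC25A6 spreads from 741 to 1278 CPM, SLC25A5 from 1457 to 1821 and SLC25A4 from 61.1 to 74.7, with overlapping groups throughout.

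Per length, SLC25A5 was 2.42 times SLC25A6 and 74.8 times SLC25A4 over the 12 libraries. With the longest coding transcript as length the ratios were 2.71 and 80.8. Both lengths are far greater for SLC25A4, with 4844 bases of merged exons, against 1500 for SLC25A5. Without length scaling the gap was smaller, at means of 1607 CPM for SLC25A5, 959 for SLC25A6 and 69.3 for SLC25A4. The level of SLC25A5 depended on the count column. Its exons share 15.1% of their bases with SLC25A5-AS1, a gene on the opposite strand, and a pair over both genes is counted for neither when strand is ignored. SLC25A5 had 132212 counts without strand, and 103064 and 111400 in the strand columns, in which an overlap with a gene on the other strand is not discarded. With both strand columns added, a setting chosen after seeing the data, SLC25A5 was 3.93 times SLC25A6 and 122 times SLC25A4. SLC25A6 shares no exon base with another gene and had 80004 counts without strand, against 38623 and 41385 by strand. Reads of SLC25A5 and of its antisense gene cannot be told apart here, so the ratio is given on both counts.

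The share of SLC25A5 in the summed length-scaled level of the ADP/ATP carriers was 73.7%, 68.0% and 66.7% with miR-211, against 74.1%, 70.4% and 68.6% with the control plasmid. It was 68.9%, 73.0% and 68.4% with U1 siRNA, against 74.3%, 69.98% and 66.6% with the scrambled oligo. The shares overlapped in both comparisons, with means of 69.5% ± 3.70 against 71.0% ± 2.76 for miR-211 and 70.1% ± 2.53 against 70.3% ± 3.85 for U1 siRNA (SD, n = 3 each). The differences of -1.55 and -0.16 percentage points had exact 2-sided permutation p of 0.5 and 1, where 0.1 is the smallest that 3 against 3 libraries allows. The share was lower with miR-211 in each of the 3 same-numbered pairs, and flipping signs within pairs gave an exact 2-sided permutation p of 0.25, the smallest that 3 pairs allow. With both strand columns added the share was 75.3% to 82.6% over the 12 libraries.

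After SLC25A5 and SLC25A6 came SLC25A17, which carries coenzyme A and other adenine nucleotides across the membrane of peroxisomes and not of mitochondria, at a length-scaled level of 163. It had 214, 209 and 207 CPM with miR-211, against 217, 216 and 205 CPM with the control plasmid. It had 210.9, 209.9 and 229.6 CPM with U1 siRNA, against 215, 214 and 222 CPM with the scrambled oligo. No carrier with a mean of at least 10 CPM was steadier: the SD within groups was 3.27% of the mean, beside 2.61% from counting alone.

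SLC25A11, the oxoglutarate carrier of the malate-aspartate shuttle, followed at a length-scaled level of 142. It had 92.9, 130.3 and 143 CPM with miR-211, against 94.3, 132 and 143 CPM with the control plasmid. It had 137, 106 and 141 CPM with U1 siRNA, against 99.2, 117 and 159 CPM with the scrambled oligo. The first miR-211 and control plasmid libraries were both low and the groups covered nearly the same range. SLC25A13, the form of the aspartate/glutamate carrier (the shuttle's other antiporter) known from liver, stood at 65.4. It had 83.9, 83.1 and 78.9 CPM with miR-211, against 87.4, 84.9 and 82.7 CPM with the control plasmid. With U1 siRNA SLC25A13 had 70.3, 77.1 and 82.9 CPM, against 69.5, 76.4 and 82.1 CPM with the scrambled oligo. Its paralogue SLC25A12 had a length-scaled level of 26.8.

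Further carriers among those with the highest length-scaled levels had values close to each other. SLC25A39, linked to glutathione import, was at 51.3 and SLC25A20, the carnitine/acylcarnitine carrier of fatty acid oxidation, at 50.2. SLC25A3, the phosphate carrier that feeds ATP synthesis, was at 47.8 and SLC25A14, a relative of the uncoupling proteins, at 45.7. Their order is not fixed by the data: with the longest coding transcript as length, SLC25A39 had the fifth highest level and SLC25A3 was at rank 11. Both lengths are great for SLC25A3, at 8896 bases of merged exons and 6087 of the longest coding transcript. In CPM its mean of 140 was above the 125 of SLC25A11 and the 59.5 of SLC25A39. SLC25A44, which imports branched-chain amino acids, was next on merged exons at 45.1, and rank 6 on the longest transcript.

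SLC25A20 had 32.8, 33.9 and 33.5 CPM with miR-211, against 35.5, 35.1 and 28.6 CPM with the control plasmid, and 31.5, 33.9 and 34.1 CPM with U1 siRNA, against 29.03, 32.4 and 32.8 CPM with the scrambled oligo. SLC25A3 had 111, 155 and 152 CPM with miR-211, against 153, 136 and 141 CPM with the control plasmid. With U1 siRNA SLC25A3 had 149, 129 and 136 CPM, against 138, 141 and 141 CPM with the scrambled oligo. Both sets of groups overlapped, and miR-211 replicate 1 held the lowest SLC25A3 value of the 12 libraries. SLC25A14 had 51.6, 47.4 and 44.5 CPM with miR-211, against 48.7, 42.6 and 46.6 CPM with the control plasmid, and its other values lay between 40.04 and 47.1 CPM.

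At the other end, 10 carriers with a mean under 1 CPM had 10 to 59 counts each over all libraries: SLC25A2, SLC25A10, SLC25A25, SLC25A29, SLC25A31, SLC25A32, SLC25A34, SLC25A41, SLC25A47 and SLC25A52. Their summed level was 4.89, 9.08 and 3.48 CPM in the U1 siRNA libraries, against 3.27, 2.37 and 4.74 CPM in the scrambled oligo libraries. It was 2.97, 2.13 and 3.23 CPM with miR-211, against 2.09, 1.87 and 4.81 CPM with the control plasmid. The highest sum was in U1 siRNA replicate 2, the library with the highest share of pairs outside exons; the part of that share in the sum was not tested. SLC25A10, the dicarboxylate carrier, and SLC25A32, linked to folate and FAD import, share 46.6% and 80.8% of their exon bases with another gene. SLC25A10 had 35 counts without strand, and 17 and 18 by strand. The strand columns would not recover pairs lost to a gene on the same strand, so these counts do not settle its level.

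Overlap with other genes touched 21 of the 48 carriers, and for 12 of them at least 10% of exon bases. In 6 carriers the strand columns together held at least 1.5 times the unstranded count, among them SLC25A35, SLC25A32, SLC25A25, SLC25A21 and SLC25A5. SLC25A35 was the extreme case, with 274 counts without strand but 4706 and 4337 in the strand columns. RANGRF, on the opposite strand, covers 33.2% of its exon bases, and the reads of both genes cannot be told apart. SLC25A32 had 37 counts, against 249 and 270 by strand, and overlaps DCAF13. Among the 22 carriers with at least 100 counts and no shared base the strand columns summed to 1.00 times the unstranded count.

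The carriers also differed in how steady they were between libraries of the same group. The SD within groups was 19.3% of the mean for SLC25A6, 20.7% for SLC25A11 and 34.2% for SLC25A39, while counting alone gives 1.22%, 3.40% and 4.88%. For SLC25A5 it was 6.04%. SLC25A39 had 41.4, 54.7 and 78.9 CPM with miR-211, against 42.1, 59.0 and 79.6 CPM with the control plasmid. It had 81.0, 41.0 and 65.3 CPM with U1 siRNA, against 46.2, 41.5 and 83.8 CPM with the scrambled oligo. Values within each group thus differed nearly as much as the lowest and the highest of all 12 libraries, which were 2.05-fold apart.

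These 3 carriers, singled out after their values were seen, moved together: in 11 of 12 libraries all 3 were on the same side of their own means over the 12 libraries. Their transcripts are rich in G and C, at 64.9% for SLC25A6, 58.3% for SLC25A11 and 62.0% for SLC25A39, against 39.2% for SLC25A17 and 49.5% for SLC25A5. The 232 protein-coding genes of at least 60% GC and at least 10 CPM moved the same way, and their median was on the same side as SLC25A6 in 11 of 12 libraries. That median lay between -0.22 in miR-211 replicate 1 and 0.19 in scrambled oligo replicate 3 on the log2 scale. SLC25A6 itself lay between -0.35 in scrambled oligo replicate 1 and 0.43 in miR-211 replicate 3. The part of GC content in the spread of these carriers was not tested.

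**Figure D3:**
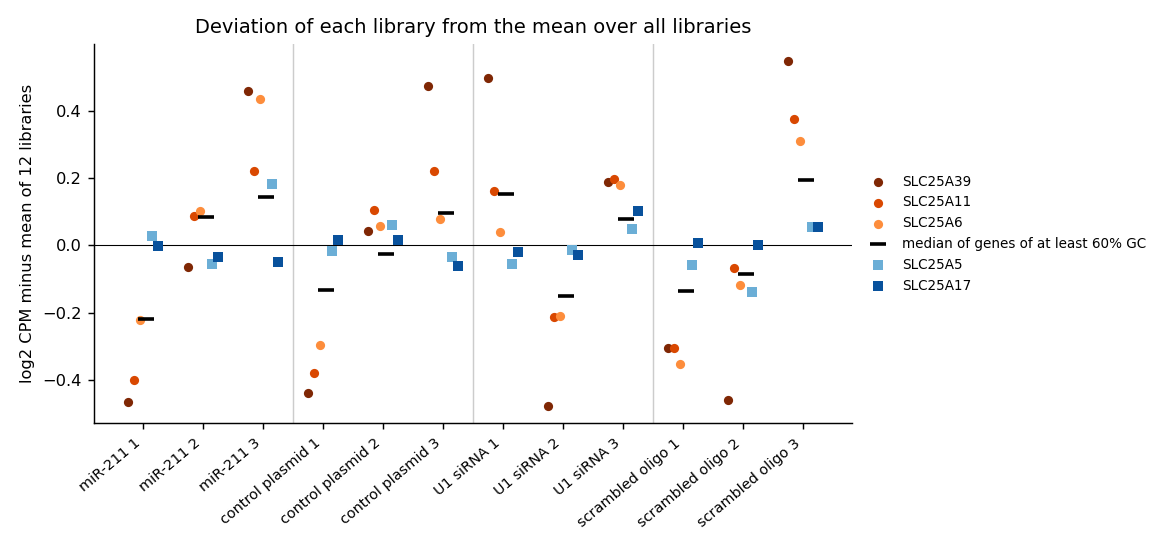
Log2 CPM (with 0.5 added) minus the mean over the 12 libraries, for 3 GC-rich carriers (circles), SLC25A5 and SLC25A17 (squares) and the median of 232 genes of at least 60% GC (bars), by library. The GC-rich carriers sit together below 0 in miR-211 replicate 1, control plasmid replicate 1, U1 siRNA replicate 2 and scrambled oligo replicates 1 and 2, and above 0 in the third library of each group.

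Over the 30 carriers with at least 10 CPM, GC content and the SD within groups had a Pearson r of 0.407 and a Spearman rho of 0.209. These points share the same 12 libraries, and over 7118 protein-coding genes the values were 0.316 and 0.289. Over all 30 carriers the median SD was 10.1% of the mean, beside 9.01% for 7119 protein-coding genes. It was 10.5%, beside 7.99% for all genes, under 45% GC, and 7.10%, beside 9.31%, at 45% to 55% GC. The 6 carriers over 55% GC had a median SD of 20.0% of the mean, beside 13.3% for 1004 genes of that GC content. Besides the 3 named above these were SLC25A23, at 20.8%, SLC25A28, and SLC25A1, the citrate carrier, at 10.2% with 65.6% GC. High GC content thus did not come with a wide spread in each carrier. In none of the GC ranges were the carriers and all genes matched by level. Counting alone gives 11.8% for SLC25A23, 11.7% for SLC25A28 and 8.43% for SLC25A1.

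The question of the first comparison was what the miR-211 plasmid changed. Of the 48 carriers, 37 passed the expression filter, and 0 were called (edgeR quasi-likelihood test, adjusted p 0.996 to 0.997), where 0.00788% of all 12685 genes tested were called. With replicate numbers left out of the fit, an unadjusted p under 0.05 was found for 0 of the 37 by edgeR, DESeq2 or limma-voom. By edgeR 3.29% of all genes tested had one. With replicate numbers as a block in edgeR, 1 of the 37 had one, SLC25A6, where 7.43% of all genes tested had. The filter lay between SLC25A22 and SLC25A18, both glutamate carriers. SLC25A22 had means of 1.34 CPM with miR-211 and 1.27 CPM with the control plasmid, and SLC25A18 had 0.894 and 0.531 CPM. Log2 fold changes were positive in 25 and negative in 12 of the 37, with a median of 0.05, beside 51.8% positive and a median of 0.01 over all genes tested. The carriers of at least 10 CPM, 29 in number, all had a 95% interval inside 1 log2 unit of 0, from a lowest bound of -0.62 for SLC25A16 to a highest of 0.59 for SLC25A23. For 26 of them the log2 fold change itself lay within 0.2 of 0.

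The groups did not overlap for 3 carriers, 1 with all miR-211 libraries higher and 2 with all lower, where 9.7% of all genes tested did not overlap, 3.29% higher and 6.42% lower. The higher one was SLC25A15, which exchanges ornithine and citrulline for the urea cycle. It had 25.0, 25.3 and 25.0 CPM with miR-211, against 22.3, 24.0 and 23.6 CPM with the control plasmid, for a log2 fold change of 0.13 (SE 0.11, adjusted p 0.996 by the edgeR quasi-likelihood test). The lower ones were SLC25A36, a pyrimidine nucleotide carrier, and SLC25A24, an ATP-Mg/phosphate carrier regulated by calcium. SLC25A36 had 60.3, 58.6 and 60.1 CPM with miR-211, against 67.1, 67.9 and 61.3 CPM with the control plasmid (-0.10, SE 0.09). None of the 3 passed the test.

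For the ADP/ATP carriers the log2 fold changes with miR-211 were 0.08 for SLC25A5 (95% interval -0.08 to 0.24), 0.20 for SLC25A6 (-0.09 to 0.49) and 0.03 for SLC25A4 (-0.15 to 0.20). These intervals come from the fit without replicate numbers. The SLC25A6 value was 0.0249 without miR-211 replicate 3, 0.0705 without control plasmid replicate 1 and 0.34 without miR-211 replicate 1. The SLC25A5 value was 0.0142 without miR-211 replicate 3. In 3 of 3 same-numbered pairs SLC25A6 was higher with miR-211, though the first and second pairs were close. With replicate numbers as a block its edgeR p was 0.00931 and its adjusted p 0.625, in a fit where 7.43% of all genes had an unadjusted p under 0.05. SLC25A6 was also the highest by signed p of the carriers with at least 10 CPM. The median of the GC-rich genes was higher in miR-211 replicates 2 and 3 than in the control plasmid libraries of the same number and lower in replicate 1; its part in the SLC25A6 values was not tested.

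Next by signed p on the higher side, after SLC25A15, were SLC25A23 and SLC25A51. SLC25A23, an ATP-Mg/phosphate carrier, had 7.91, 12.9 and 13.2 CPM with miR-211, against 10.3, 10.4 and 10.02 CPM with the control plasmid (0.20, SE 0.18). SLC25A51, which imports NAD, had 15.7, 18.7 and 16.4 CPM with miR-211, against 18.0, 15.8 and 13.1 CPM with the control plasmid (0.16, SE 0.15). In both, 2 of 3 same-numbered pairs were higher with miR-211 and the groups overlapped. SLC25A23 was 0.0861 without miR-211 replicate 2 and 0.37 without miR-211 replicate 1. SLC25A51 was 0.0359 without control plasmid replicate 3 and 0.24 without control plasmid replicate 1.

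On the lower side SLC25A16, linked to coenzyme A import, had 11.04, 11.8 and 11.5 CPM with miR-211, against 13.8, 11.5 and 17.4 CPM with the control plasmid (log2 fold change -0.28, SE 0.16). The 3 miR-211 values were close together, and 1 of the control values fell among them. The SLC25A16 value was -0.11 without control plasmid replicate 3 and -0.41 without control plasmid replicate 2. SLC25A26, which imports the methyl donor S-adenosylmethionine, had 67.2, 62.8 and 60.1 CPM with miR-211, against 69.9, 66.9 and 67.6 CPM with the control plasmid (-0.08, SE 0.09). SLC25A21, the oxoadipate carrier of lysine breakdown, had 12.2, 12.1 and 8.15 CPM, against 12.5, 10.9 and 12.4 CPM (-0.12, SE 0.17). Its value rested on miR-211 replicate 3, without which it was 0.05, and its exons overlap PAX9 and SLC25A21-AS1 over 28.8% of their bases.

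**Figure D4:**
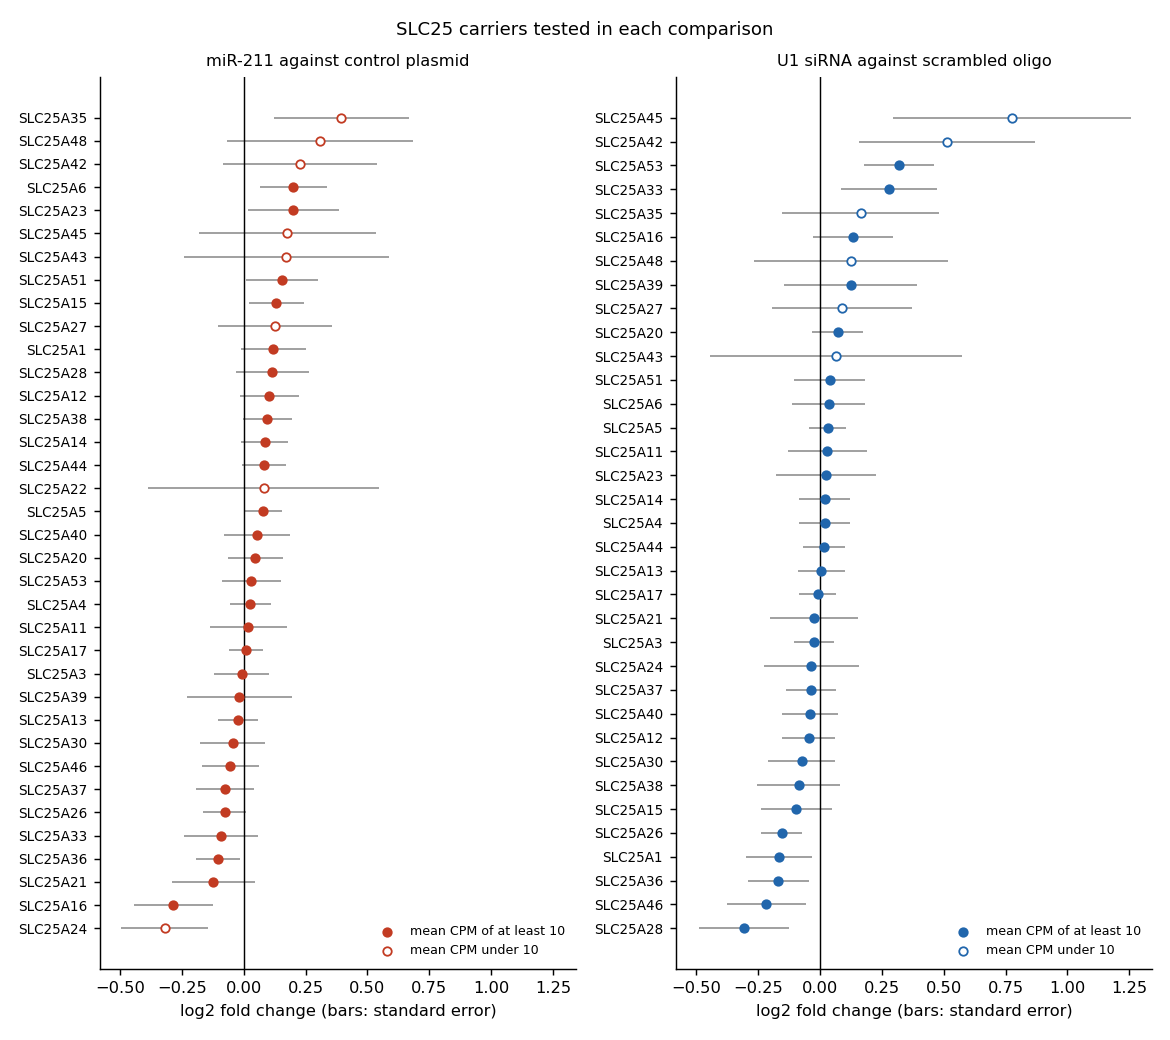
Log2 fold change with its standard error for carriers tested with miR-211 against the control plasmid and with U1 siRNA against the scrambled oligo, each ordered by value; filled points have a mean of at least 10 CPM in that comparison. Most filled points lie within 0.2 of 0, and the widest bars belong to the open points.

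Mature miR-211 binds by its seed, bases 2 to 8, and matches to the seed were looked for in the 3 prime UTRs of the carriers. The mature microRNA is shown with its seed in capitals, from RefSeq on GRCh38.p14, followed by the windows around the 8mer matches of the 3 tested carriers that have one, with the match in capitals and read 5 prime to 3 prime along the transcript, from GENCODE 29 on GRCh38.
hsa-miR-211-5p: uUCCCUUUgucauccuucgccu
SLC25A24, minus strand, chr1:108136521-108136550: tttttttcacaAAAGGGAAgatggtaacaa
SLC25A35, minus strand, chr17:8290146-8290175: cctccaaaaccAAAGGGAAtcgagagaccc
SLC25A48, plus strand, chr5:135889474-135889503: gactgagaataAAAGGGAAttttctcagcc

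An 8mer match was found in 4 of 48 carriers (8.33%), beside 8.75% of all 19133 protein-coding genes with a 3 prime UTR, and a 7mer match only in 9 (18.75%). The fourth carrier with an 8mer, SLC25A34, was below the expression filter. SLC25A24, whose window is shown above, had 7.74, 10.4 and 6.86 CPM with miR-211, against 11.1, 10.5 and 10.6 CPM with the control plasmid. Its groups did not overlap, though its highest miR-211 value lay just under the lowest control value, and its log2 fold change was the lowest of the 37, at -0.32 (SE 0.18, adjusted p 0.996 by the edgeR quasi-likelihood test). It was -0.54 without miR-211 replicate 2 and -0.18 without miR-211 replicate 3.

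The other carriers with an 8mer went the other way in value. SLC25A35 had 3.46, 2.96 and 4.14 CPM with miR-211, against 3.21, 2.73 and 2.27 CPM with the control plasmid (0.40, SE 0.27), and SLC25A48 had 1.32, 2.13 and 3.62 CPM, against 1.61, 2.16 and 2.14 CPM (0.31, SE 0.38). SLC25A35 carries the doubt over RANGRF given above, and the value of SLC25A48 rested on miR-211 replicate 3, without which it was -0.13. For the 8 tested carriers with a 7mer only the median log2 fold change was -0.03, in a range of -0.28 for SLC25A16 to 0.13 for SLC25A27. The 26 with no match had a median of 0.07. These are descriptions of few genes with no test, and a match is not evidence of binding. Medians by match over all genes are not given beside them, so the gap between these medians is not read as an effect of the match.

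The second comparison asked what the siRNA against U1 changed. Of the 36 carriers tested 0 were called by edgeR, DESeq2 or limma-voom (edgeR quasi-likelihood test, adjusted p 0.99992 for each), where 0% of all 12413 genes tested were called. SLC25A22 was below the filter here. Log2 fold changes were positive in 21 and negative in 15, with a median of 0.02, beside 54.7% positive and a median of 0.02 over all genes tested. The sign of the carriers' median was not stable, and it was -0.0323 without scrambled oligo replicate 1, with 13 of 36 positive. The 30 carriers of at least 10 CPM again all had a 95% interval inside 1 log2 unit of 0, from -0.70 for SLC25A28 to 0.71 for SLC25A39.

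One carrier, SLC25A53 (ENSG00000269743, chromosome X, 104099214 to 104157027, minus strand), had an unadjusted p under 0.05 by edgeR and by limma-voom, and 0 carriers had one by DESeq2. By edgeR 1.58% of all genes tested had such a p. SLC25A53 had 18.3, 22.6 and 19.3 CPM with U1 siRNA, against 17.6, 14.2 and 15.7 CPM with the scrambled oligo, a log2 fold change of 0.32 (SE 0.14, p 0.0426). All 3 U1 siRNA libraries were higher, and the highest was U1 siRNA replicate 2. With replicate numbers as a block, though they were not taken to pair these libraries, its edgeR p was 0.0509. In that fit 1.8% of all genes tested had an unadjusted p under 0.05.

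In all, 3 carriers had all U1 siRNA libraries above and 1 had all below the scrambled oligo libraries, where 6.45% of all genes tested did not overlap, 3.54% higher and 2.92% lower. Besides SLC25A53 the higher ones included SLC25A42, a coenzyme A carrier. SLC25A42 had 3.00, 3.99 and 3.31 CPM with U1 siRNA, against 2.86, 2.71 and 1.61 CPM with the scrambled oligo (0.51, SE 0.36). The lower one was SLC25A26, with 66.1, 66.9 and 63.2 CPM with U1 siRNA, against 67.6, 74.0 and 75.6 CPM with the scrambled oligo (-0.15, SE 0.08).

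The iron carrier SLC25A28, mitoferrin 2, had the lowest log2 fold change of the 36, -0.31 (SE 0.18). It had 9.93, 9.08 and 8.71 CPM with U1 siRNA, against 10.8, 13.9 and 9.90 CPM with the scrambled oligo, and the groups overlapped only through U1 siRNA replicate 1 and scrambled oligo replicate 3. SLC25A36 had 71.7, 52.7 and 58.4 CPM with U1 siRNA, against 71.8, 63.7 and 69.6 CPM (-0.17, SE 0.12). SLC25A46, an outer membrane protein of the family with a role in mitochondrial shape, had 23.6, 18.6 and 19.2 CPM, against 26.8, 25.2 and 19.7 CPM (-0.22, SE 0.16). In these 3 carriers each U1 siRNA library was below the scrambled oligo library of the same number. The numbers were not taken to pair libraries in this comparison, so that agreement carries no weight of its own.

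On the higher side SLC25A33, the paralogue of SLC25A36, had 12.1, 11.96 and 15.0 CPM with U1 siRNA, against 11.3, 12.9 and 8.40 CPM with the scrambled oligo (0.28, SE 0.19). SLC25A16 had 17.2, 16.8 and 11.8 CPM, against 12.8, 13.9 and 14.7 CPM (0.13, SE 0.16). Both groups overlapped. For SLC25A5, SLC25A6 and SLC25A4 the log2 fold changes were 0.03 (95% interval -0.13 to 0.19), 0.04 (-0.29 to 0.36) and 0.02 (-0.21 to 0.25).

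A difference between both effects was tested over all 12 libraries. It was called for 0 of the 37 carriers tested (edgeR quasi-likelihood test, adjusted p 0.999), where 0.0074% of 13520 genes were called, and 0 carriers had an unadjusted p under 0.05, where 1.73% of all genes had. The difference was positive for 23 of the 37, beside 43.7% of all genes tested. That majority was not stable. Without U1 siRNA replicate 2 the difference was positive for 17 of 37 carriers, with a median of -0.0344, beside 7087 of 13872 genes. Without scrambled oligo replicate 3 it was positive for 18 of 37. With any other library left out most carriers stayed positive. The lowest p belonged to SLC25A16, -0.28 with miR-211 and 0.13 with U1 siRNA (difference -0.43, SE 0.23, p 0.0776), and to SLC25A28, 0.12 and -0.31 (difference 0.40, SE 0.22, p 0.0867). Values that differ in sign between the comparisons are therefore not shown to differ.

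The paralogue choice in the other transport families was described by the share of 1 fixed carrier in the summed length-scaled level of its family. SLC25A15 made up 98.1% to 100% of the ornithine carriers, with SLC25A2 at 10 counts in all, and SLC25A51 88.1% to 100% of the NAD carriers, with SLC25A52 at 17 counts. SLC25A14 held 75.8% to 81.1% of the uncoupling-protein-like carriers, ahead of SLC25A30 and SLC25A27. SLC25A13 held 66.9% to 73.1% of the aspartate/glutamate carriers, SLC25A39 63.8% to 81.7% of the pair with SLC25A40, and SLC25A16 62.7% to 84.1% of the pair with SLC25A42.

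SLC25A36 held 59.3% to 75.6% of the pyrimidine nucleotide carriers, ahead of SLC25A33. The mitoferrins SLC25A28 and SLC25A37 had mean length-scaled levels of 18.4 and 15.1, and SLC25A28 held 48.1% to 61.0%. With the longest coding transcript as length their order turned, at 14.2 for SLC25A28 and 16.2 for SLC25A37. SLC25A37 is known as the form of red cell precursors. Among the ATP-Mg/phosphate carriers SLC25A23 and SLC25A24 were at 6.56 and 4.76, with SLC25A25 and SLC25A41 at 0.46 and 0.50. The glutamate pair SLC25A22 and SLC25A18 rested on means of 1.23 and 1.12 CPM, and its share ran from 17.7% to 88.4%, too shallow to rank them.

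**Figure D5:**
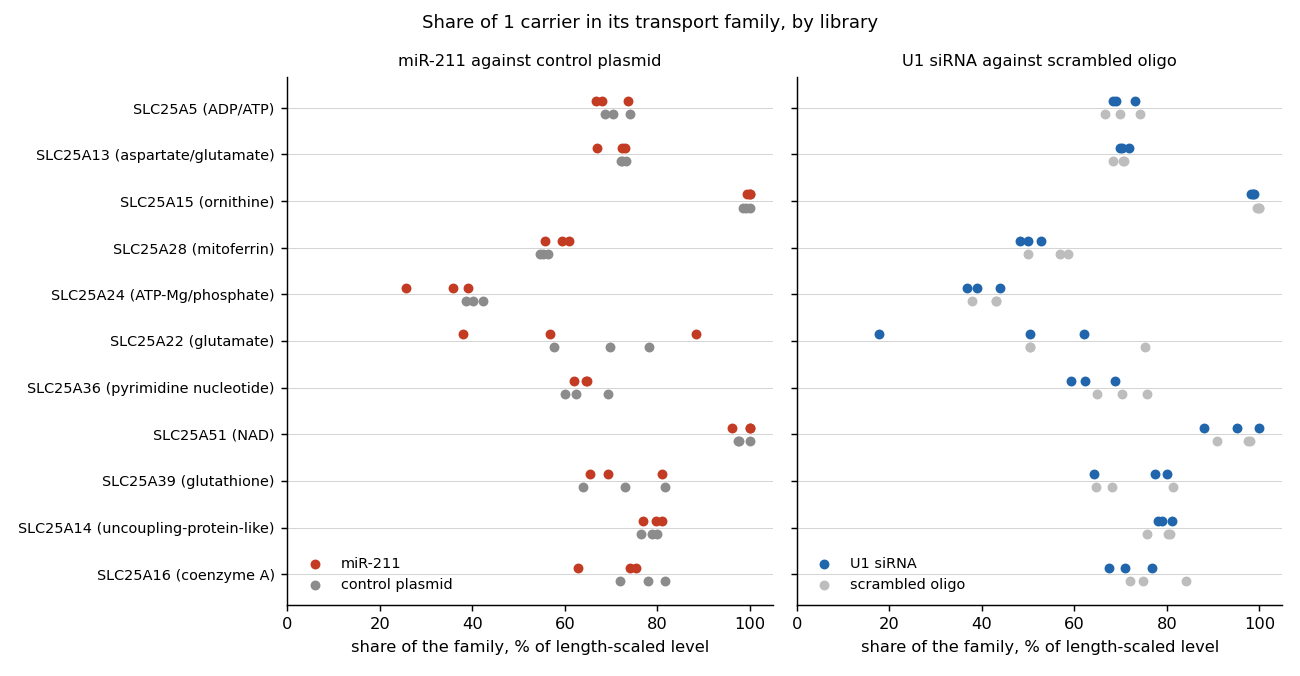
Share (% of the family's summed length-scaled level) of 1 carrier in each of 11 transport families, with 1 point per library, for miR-211 against the control plasmid and U1 siRNA against the scrambled oligo. The treated and control points overlap in all families except the ornithine carriers with U1 siRNA, where all values lie between 98.1% and 100%.

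The 22 share comparisons are given as descriptions, since 3 against 3 libraries cannot give an exact permutation p under 0.1 and no comparison could pass 0.05. With miR-211 the groups overlapped in all 11 families. SLC25A24 held 39.1%, 35.8% and 25.7% of its family with miR-211, against 42.3%, 40.04% and 38.6% with the control plasmid (exact permutation p 0.2), lower with miR-211 in each of the 3 same-numbered pairs. With U1 siRNA the groups did not overlap in 1 family, the ornithine carriers, with 98.5%, 98.8% and 98.1% SLC25A15, against 100%, 100% and 99.5% with the scrambled oligo (p 0.1, exact permutation test). That difference rests on the few counts of SLC25A2.

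The 48 carriers together summed to 4121 ± 388 CPM with miR-211 and 3961 ± 172 CPM with the control plasmid (SD, n = 3 each, exact permutation p 0.7). In the siRNA experiment the sum was 3980.1 ± 207 CPM for the U1 siRNA libraries and 3909 ± 386 CPM for the scrambled oligo libraries (p 0.8, exact permutation test). Without SLC25A5 and SLC25A6 the sums were 1419 ± 47.1 against 1434 ± 24.5 CPM, and 1429 ± 60.3 against 1425 ± 77.0 CPM. Most of the spread of the total thus came from the leading pair.

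Genes that work beside the carriers were described the same way, and 0 of them were called in either comparison (edgeR quasi-likelihood test). Of 5 family members under other symbols 3 were tested, and all had positive log2 fold changes in both comparisons. UCP2, an uncoupling protein, had 0.19 (SE 0.10) with miR-211 and 0.11 (SE 0.08) with U1 siRNA, and MTCH2, an outer membrane insertase, 0.06 and 0.06. UCP1 and UCP3, the forms of brown fat and muscle, were below the filter. Of the import machinery that brings carriers into the inner membrane 15 of 16 genes were tested, with 8 positive with miR-211 and 5 with U1 siRNA. TIMM22, the channel of carrier insertion, had 0.03 (SE 0.09) and 0.10 (SE 0.08), and the receptor TOMM70 -0.06 (SE 0.11) and -0.00046 (SE 0.11). Of 22 mitochondrial transport genes outside the family 21 were tested, and 9 were positive in each comparison. Medians of the 3 lists were 0.18, 0.03 and -0.01 with miR-211, and 0.0566, -0.0200 and -0.0246 with U1 siRNA. The value of 0.18 rests on 3 genes and was 0.0644 without control plasmid replicate 1.

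In the 250 bases before the start of transcription (RefSeq, GRCh38.p14), which could be matched for 40 of 48 carriers, the GC box GGGCGG was found on either strand in 70% and CCAAT in 45%. Over 14896 protein-coding genes these were found in 56.9% and 34.5%. TATAA was found in 12.5% of carriers and 15.6% of all genes, and CCGGAA, the core of ETS sites, in 30% and 19.6%. These are descriptions of sequence with no test, and none of these motifs contains another.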

How the data were processed

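Gene counts from RNA sequencing (paired reads of 126 nt) of 12 HEK293T libraries were used. The authors deposited whole-number read counts per gene without normalization, in an unstranded column and 2 strand columns. Alignment was with STAR 2.7.2a, and builds GRCh37 and hg19 are named, per the submitters' processing notes, but all gene identifiers are those of GENCODE 29, made on GRCh38. Which of these served for alignment was not settled, so coordinates come from GENCODE 29 and not from the deposited files. The kit and its strand setting are not given either. The strand columns differed in total by a factor of 0.907 to 1.01, so the unstranded column was used, in which pairs over overlapping genes are lost. Depth was 4515728 to 9290686 counts per library.

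CPM used the total over genes. The test of counts was that of edgeR 4.0.16 under R 4.3.3 (TMM scaling, filterByExpr, quasi-likelihood test, Benjamini-Hochberg adjusted p under 0.05 over all genes tested), on the 6 libraries of each comparison, and as an interaction over all 12. Intervals are t intervals from the edgeR standard error and degrees of freedom of the fit without a replicate block. Sums and shares were compared by 2-sided exact permutation tests over libraries (SciPy 1.17.1). Lengths, overlaps and 3 prime UTRs came from GENCODE 29, and GC content from the longest coding transcript. Alternatives were DESeq2 1.42.0, limma-voom 3.58.1, other scaling, no filter, the strand columns, a replicate block and leaving out each library. Transcript length and the sum of both strand columns were added after seeing the data. The test was also run on simulated counts with known changes, but the share it recovered is not given here.

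Carriers given by library were the ADP/ATP carriers, the 10 with the highest length-scaled level and, in each comparison, the 4 highest and 4 lowest by signed p with at least 10 CPM. Carriers with an 8mer match, with groups that did not overlap, or with a wide spread or overlap were named after their values were seen. Of these carriers, 1 is counted but not reported here by name or values. The members and gene lists were chosen with earlier results of these data known.

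To see whether replicate numbers pair the libraries, each library's deviation from its group mean was correlated over genes with that of the library sharing its number. The r values were 0.248, 0.305 and 0.239 for miR-211 and control plasmid, so the numbers were taken to pair these libraries, and 0.140, 0.0907 and -0.0480 for U1 siRNA and scrambled oligo, where they were not, though no label explains the numbers. No replicate pair was as alike as sampling alone would make it (chi-square over degrees of freedom 2.15 to 7.25). Each p-value rests on library spread alone, part of which may be technical.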

Additional observations from a re-analysis of the deposited data

How the results depend on the processing

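Across the alternatives run (DESeq2, limma-voom, other scaling, no filter, each strand column, the replicate block and each library left out) 0 carriers were called. The median log2 fold change of the carriers with miR-211 (0.05) was 0.0260 with library totals and 0.0230 with strand column 4, and 0.0208 to 0.0675 with a library left out. With U1 siRNA the median (0.02) was -0.0421 with no filter and -0.0323 to 0.0384 with a library left out. Over all genes, calls with miR-211 (1) were 2 with no filter and with either strand column, calls with U1 siRNA (0) were 7 with no filter, and calls for the difference of both effects (1) were 3 with no filter, 0 with the replicate block and 0 to 1 with a library left out. The replicate block gave a carrier median of 0.05 with miR-211 and 0.02 with U1 siRNA and changed no other call. Summed carrier CPM differed by -1.47% to 7.90% with miR-211 and -1.53% to 7.91% with U1 siRNA when a library was left out. The SLC25A5 share difference with U1 siRNA (-0.16 points) was 0.0647 with strand column 3, 0.267 with column 4, 0.173 with their sum and -1.997 to 1.84 with a library left out. Families whose groups did not overlap with miR-211 (0) were 2 with strand column 4, 1 with no length scaling, 1 with the sum of strand columns and 1 to 2 with a library left out; with U1 siRNA (1) they were 2 with strand column 4 and 1 to 4 with a library left out. With miR-211, SLC25A26 was 0.0165 with strand column 3 and SLC25A4 -0.00034 with library totals, and leaving out libraries gave SLC25A21 -0.24 to 0.0519 and SLC25A48 -0.13 to 0.54. With U1 siRNA, SLC25A4, SLC25A5 and SLC25A6 were -0.0434, -0.0396 and -0.0218 with no filter, SLC25A4 was -0.0244 with strand column 3, and leaving out libraries gave -0.0584 to 0.12, -0.0168 to 0.0800 and -0.11 to 0.24. Other carriers with a library left out were, with miR-211, SLC25A6 at 0.0249 to 0.34, SLC25A15 at 0.0839 to 0.17, SLC25A36 at -0.15 to -0.0643, SLC25A26 at -0.13 to -0.0380 and SLC25A35 at 0.26 to 0.51, and with U1 siRNA, SLC25A53 at 0.25 to 0.40, SLC25A16 at 0.0164 to 0.27, SLC25A33 at 0.11 to 0.40, SLC25A36 at -0.32 to -0.0573, SLC25A46 at -0.35 to -0.12 and SLC25A28 at -0.41 to -0.17. The cause of these moves was not tested. For 10 CPM and under, counting error was a large part of the spread, and in some carriers as large as the spread itself. SLC25A42 had an SD within groups of 22.4% of the mean, against 23.5% from counting. In others it was not all of the spread: SLC25A43 had 53.3%, against 27.4% from counting.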
